A study of Rattus norvegicus with 35 samples.

Results

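Hemorrhage followed by resuscitation (H/R) was compared with a sham procedure in rats that carried secondary biliary cirrhosis and had been given simvastatin. The members are the liver arrays whose treatment group label reads CBDLSS (simvastatin sham, n = 5) or CBDLSH (simvastatin H/R, n = 8), 13 of the 35 arrays of the series. All 13 came from rats with ligation of the common bile duct that were studied 4 weeks after the surgery, and all had received simvastatin by gavage at 5 mg per kg daily, starting 3 days ahead of the procedure and ending with a dose 1 h ahead of it. By the treatment labels they differ in the procedure alone. Their titles also differ in ending, with 2 of 5 sham and 2 of 8 H/R arrays ending in 12 and the others in 13. The other 22 arrays serve here only for reference. They are ligated rats without simvastatin after sham (CBDLpS, n = 5) or H/R (CBDLpH, n = 6), and control rats without cirrhosis, also without simvastatin, after sham (CTROLS, n = 5) or H/R (CTROLH, n = 6). Strain, sex, age, bled volume and the time from resuscitation to sampling are not given in the sources used here, nor is whether rats without simvastatin received vehicle. Bile duct ligation models obstructive, cholestatic cirrhosis and not cirrhosis of toxic or viral origin.

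Blood loss and its replacement expose the liver to a period of low perfusion and then to reoxygenation. Known responses of liver tissue to such an insult are induction of heat shock chaperones, which refold damaged proteins, activation of Kupffer cells, the resident macrophages of the sinusoids, and recruitment of neutrophils. Simvastatin is a statin, a drug class that lowers sterol synthesis through the mevalonate pathway, and in endothelial cells it is known to raise the transcription factor Klf2 and the nitric oxide synthase Nos3. The bile duct ligated liver also holds many dividing cells, among them cholangiocytes of the proliferating ductules.

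The arrays carried the signals of cirrhotic liver. Albumin (Alb) had a mean log2 signal of 13.58 ± 0.09 (SD, n = 5) in the sham and 13.66 ± 0.05 (SD, n = 8) in the H/R group. Krt19, a keratin of cholangiocytes, was at 9.85 ± 0.34 (SD, n = 5) and 9.80 ± 0.51 (SD, n = 8) there, against 5.19 ± 0.39 (SD, n = 5) in control sham livers. One sham array stood apart. In simvastatin sham replicate 1 the 3′ probe set of the Gapdh control exceeded its 5′ probe set by 2.20 on the log2 scale, while all other arrays lay between 0.00 and 0.34, and its actin control gave 4.30 against 1.41 to 2.34. A high 3′ to 5′ difference is a known sign of degraded RNA or incomplete labelling. Results are therefore given with and without that array.

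With 1 mean per group fitted over all 35 arrays with limma, 0 of 13439 genes passed an adjusted p of 0.05 between simvastatin H/R and simvastatin sham, so percent called was 0, and the lowest adjusted p was 0.34. The lowest adjusted p was 0.32 when sham replicate 1 was left out. At an unadjusted p under 0.05 there were 725 genes (5.39% of those tested), 270 of them higher after H/R (2.01%) and 455 lower (3.39%). Without sham replicate 1 the counts were 174 higher (1.29%) and 316 lower (2.35%), and without sham replicate 2 the count of higher genes was 449, so single sham arrays moved it by more than 1.5 times either way. With each array centred on its median the counts were 421 higher and 278 lower, so the split between directions depends on the scaling. Arrays of the groups did not overlap for 17 genes higher (0.126%) and 20 genes lower (0.149%) after H/R. The same fit passed 16 genes higher (0.119%) and 2 lower (0.0149%) after H/R in untreated ligated livers, and 49 higher (0.365%) and 66 lower (0.491%) in control livers. A gene past the threshold in 1 comparison and not in another is not thereby shown to differ, and the tests of the differences follow below with the genes concerned.

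The precision of the comparison limits how large an effect could have gone unseen. The median standard error of a gene's log2 difference was 0.15, and the median half-width of its 95% interval was 0.31. Of the 10323 genes above background in at least 1 of the groups, as defined next, the whole 95% interval lay within a log2 difference of 1 in either direction for 9843 (95.4%) and within 0.58 for 7318 (70.9%). A difference of at least 1 in size was estimated for 27 genes, 5 higher and 22 lower after H/R. In 3116 genes the mean of neither group exceeded that of the brightest nonspecific control probe, called background here, and these carry no usable level.

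The genes of smallest p higher after H/R were led by a pair of secreted and metabolic hepatocyte genes. A2m, the protease inhibitor alpha-2-macroglobulin and an acute phase protein of the rat, had log2 signals of 9.81, 10.50, 10.37, 10.88 and 11.17 in the 5 sham arrays. In the 8 H/R arrays they ran from 10.69 through a median of 11.69 to 12.74. The difference was 1.17 ± 0.26 (SE), with an unadjusted p of 6.9e-05 and an adjusted p of 0.34. Sham replicate 1 had the lowest value, the groups overlapped, and without that array the difference was 0.99 ± 0.27 (SE). Cyp3a9, a cytochrome P450 of the drug-metabolising CYP3A family, read 4.68, 5.20, 5.07, 6.04 and 6.88 in the sham arrays and from 6.38 to 8.69, median 7.49, after H/R. Its difference was 1.86 ± 0.42 (SE; unadjusted p 1e-04, adjusted p 0.34), and 1.63 ± 0.45 (SE) without sham replicate 1. Cyp3a genes are similar in sequence, and how far the probe set tells them apart was not tested.

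The other 8 genes of the set were Dock9, Flt4, Sulf1, Rhoa, Gnai1, Nars1, Retreg3 and Ythdf2, with log2 differences between 0.42 and 0.83. Flt4, the receptor of vascular endothelial growth factor C on lymphatic and sinusoidal endothelium, read 3.74, 3.47, 3.58, 3.64 and 3.75 in the sham arrays. After H/R it ran from 3.97 to 5.19 with a median of 4.17, so every H/R array lay above every sham array. The sham arrays of untreated ligated livers read 3.82 to 4.60, also above every treated sham array. Gnai1, an inhibitory G protein subunit, also showed no overlap of the treated groups, with sham values from 3.88 to 5.30 and H/R values from 5.41 to 6.13. In untreated ligated sham arrays it read 5.20 to 5.77. Rhoa, a small GTPase whose membrane anchoring needs a mevalonate product, had a difference of 0.43 ± 0.12 (SE) with overlapping groups. For Nars1, the cytosolic asparaginyl-tRNA synthetase, sham replicate 1 was at 7.30 while the other sham arrays lay between 8.36 and 8.53, and the difference of 0.52 became 0.30 without it. For Ythdf2, a reader of methylated adenosine in RNA, it went from 0.52 to 0.29 in the same way, and its second probe set, also well above background, gave -0.20. The estimates of all 20 genes kept their sign without that array. They were picked for small p with it included, so a change of sign was unlikely from the outset.

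**Figure D1:**
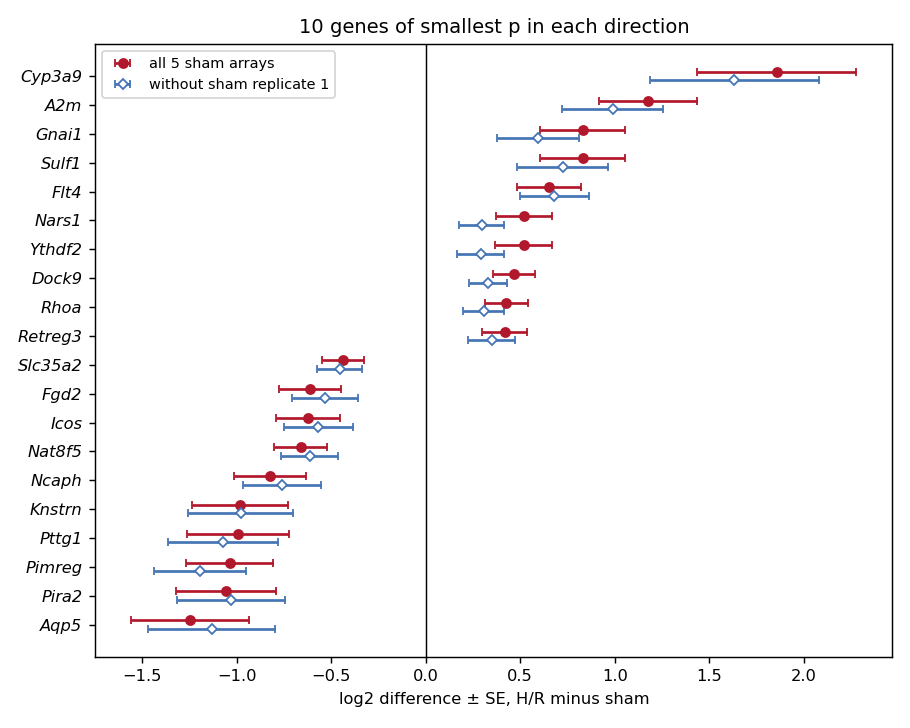
Log2 difference of simvastatin H/R minus simvastatin sham (x axis, log2 units, bars ± SE) for the 10 genes of smallest p in each direction, with all 5 sham arrays (filled circles) and without sham replicate 1 (open diamonds). All estimates keep their side of 0, and Nars1 moves from 0.52 to 0.30. The genes were picked for small p with that array included, so a change of side was unlikely.

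Among the 10 lower genes of smallest p, Pimreg, Ncaph, Knstrn and Pttg1 are genes of chromosome segregation. Knstrn, a kinetochore and spindle protein, read 4.98, 5.09, 4.79, 5.11 and 4.90 in the sham arrays and from 3.09 to 4.66, median 3.97, after H/R, with no overlap. Its difference was -0.98 ± 0.25 (SE; unadjusted p 0.00049, adjusted p 0.55). Pttg1, which encodes securin, the inhibitor of separase, had 5.05 in sham replicate 1 and 5.43 to 5.46 in the other sham arrays, against 3.68 to 5.15 after H/R, a difference of -0.99 ± 0.27 (SE). Ncaph, a condensin subunit, had sham values from 5.17 to 5.87 and H/R values from 4.44 to 5.33, a difference of -0.82 ± 0.19 (SE). The mean of Pimreg after H/R was not above background, so the gene was at least 1.37-fold lower there, with each H/R array at the higher of its own signal and background.

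The remaining genes of that set were Nat8f5, Pira2, Aqp5, Slc35a2, Fgd2 and Icos. Aqp5, a water channel of secretory epithelia, read 6.93, 6.56, 6.65, 5.99 and 6.25 in the sham arrays and from 4.09 to 6.22, median 5.33, after H/R, a difference of -1.25 ± 0.31 (SE). Slc35a2, the Golgi carrier of UDP-galactose, had a difference of -0.43 ± 0.11 (SE), Fgd2, an exchange factor for Cdc42 in leukocytes, -0.61 ± 0.16 (SE), and Icos, a costimulatory receptor of T cells, -0.62 ± 0.17 (SE). In these 3 every H/R array lay below every sham array. For Slc35a2 the sham arrays of untreated ligated livers, at 4.36 to 4.68, also lay below every treated sham array. The mean of Nat8f5 after H/R was not above background, and no fold is given for it.

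The cell cycle list had the median furthest from 0 of the 33 lists with all arrays. Within title ending 13 it did not, with -0.34 against -0.40 for MHC class II presentation and 0.39 for immediate early genes, and without sham replicate 1 it was at -0.45 beside -0.44 for MHC class II. Its 26 members, all measured and all above background in at least 1 of the groups, had a median log2 difference of -0.48, against -0.01 over all genes tested. The difference was negative in 24 of 26 members, beside 53.7% of all genes. At an unadjusted p under 0.05, 15 of 26 were lower after H/R (57.7%, background 3.39%) and 0 were higher, and 0 passed the adjusted threshold. In Ccnb2, Mki67 and Aurka the arrays of the groups did not overlap, a background of 0.149%. Without sham replicate 1, 13 of 26 were lower at that p with a median of -0.45. The median was -0.49 with the ending of the array title as a block, -0.89 within title ending 12 and -0.34 within ending 13. Those were the lowest and the highest medians over the 24 alternatives run. Genes of cell division had already stood out in earlier results of these data, so the list is a description of these arrays and not independent support.

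Split by role, the 13 members that act in G2 and mitosis had a median of -0.82, and all 13 were negative. Of them, 11 were lower at an unadjusted p under 0.05. The 13 members of DNA replication and G1 had a median of -0.22, 11 were negative, and 4 were lower at that p. Over all genes 53.7% were negative and 3.39% were lower at that p. The split divides the same list, so it too is a description and not independent support. Within the arrays whose titles end in 12 (2 sham, 2 H/R) the mitosis median was -1.08, and within those ending in 13 (3 sham, 6 H/R) it was -0.78. For the replication members the same values were -0.40 and 0.06. What the title endings stand for is not given in the labels.

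Transcription of many mitosis genes is known to be held back outside G2 through a short promoter element called the cell cycle genes homology region, TTTGAA, often placed beside CCAAT boxes, which bind the factor NF-Y. RefSeq promoter windows of 300 bases (250 before to 50 after the annotated start, build GRCr8) were found for 11 of the 13 mitosis members and 9 of the 13 replication members. TTTGAA, on either strand, was present in 8 of the 11 mitosis windows (72.7%), in 1 of the 9 replication windows (11.1%) and in 18.3% of all 33469 windows. CCAAT, on either strand, was present in 8 of 11, in 6 of 9 and in 37.5% of all windows. Both together were in 7 of 11, in 0 of 9 and in 7.41% of all windows. The 250 bases before the start are shown for Ccnb2, Cdc20 and Top2a, mitosis members that hold both, and for Mcm5, a replication member that holds CCAAT alone. They were picked as examples of the layouts. Among the other mitosis members, Ccnb1 holds CCAAT alone and had a log2 difference of -0.84 after H/R, and Plk1 holds both and had -0.32. Whether the layout goes with the size of the differences was not tested. They are written 5′ to 3′ on the strand of the gene, with TTTGAA and CCAAT of either strand in capitals (TTCAAA and ATTGG where they lie on the opposite strand).
Ccnb2, chr8:79981659-79981908, minus strand: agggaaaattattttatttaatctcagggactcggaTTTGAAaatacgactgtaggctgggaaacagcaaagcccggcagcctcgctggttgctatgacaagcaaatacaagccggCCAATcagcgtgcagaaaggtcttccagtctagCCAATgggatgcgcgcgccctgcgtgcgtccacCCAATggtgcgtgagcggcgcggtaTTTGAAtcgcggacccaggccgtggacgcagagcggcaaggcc
Cdc20, chr5:137255800-137256049, minus strand: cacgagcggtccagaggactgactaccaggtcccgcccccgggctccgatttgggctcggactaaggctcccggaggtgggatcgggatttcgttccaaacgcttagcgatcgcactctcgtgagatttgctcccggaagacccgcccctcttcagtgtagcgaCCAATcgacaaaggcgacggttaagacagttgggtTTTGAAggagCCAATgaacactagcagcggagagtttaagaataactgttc
Top2a, chr10:84473094-84473343, minus strand: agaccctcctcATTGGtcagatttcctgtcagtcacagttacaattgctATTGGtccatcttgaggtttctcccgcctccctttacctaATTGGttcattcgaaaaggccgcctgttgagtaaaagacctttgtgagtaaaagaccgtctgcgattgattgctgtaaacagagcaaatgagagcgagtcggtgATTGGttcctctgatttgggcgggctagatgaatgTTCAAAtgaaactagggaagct
Mcm5, chr19:13488563-13488812, plus strand: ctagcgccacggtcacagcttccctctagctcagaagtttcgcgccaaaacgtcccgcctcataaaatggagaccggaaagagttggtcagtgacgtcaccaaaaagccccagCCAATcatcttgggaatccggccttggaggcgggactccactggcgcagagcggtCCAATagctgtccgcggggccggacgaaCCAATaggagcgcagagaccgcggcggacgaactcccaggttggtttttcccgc
In Ccnb2 the nearest TTTGAA begins 43 bases before the start, behind CCAAT boxes at 134, 101 and 68 bases. In Cdc20 it begins 51 bases before the start and in Top2a 22 bases. In Mcm5 the CCAAT boxes begin 137, 82 and 54 bases before the start. A match to these letters is no evidence of binding.

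Ccnb2, cyclin B2, a mitotic partner of the kinase Cdk1, read 6.00, 6.50, 6.32, 6.11 and 6.44 in the sham arrays and from 3.24 to 5.99, median 4.87, after H/R. All 8 H/R arrays were lower than all 5 sham arrays, and the difference was -1.32 ± 0.42 (SE; unadjusted p 0.0034, adjusted p 0.81). Mki67, the proliferation antigen Ki-67, read 6.44, 6.24, 6.10, 6.34 and 6.07 against 3.99 to 6.03, median 5.02, a difference of -1.13 ± 0.36 (SE; unadjusted p 0.0035, adjusted p 0.81). Top2a, topoisomerase II alpha, read 5.92, 5.84, 5.74, 5.48 and 5.63 against 3.65 to 5.58, median 4.58, a difference of -1.08 ± 0.33 (SE), and only its highest H/R array reached the sham range. Its second probe set gave -0.71. Aurkb, the kinase of the chromosomal passenger complex, read 4.11, 4.50, 3.99, 4.87 and 4.76 against 2.97 to 4.34, a difference of -0.91 ± 0.25 (SE; unadjusted p 0.0011, adjusted p 0.60). Cdc20, an activator of the anaphase-promoting complex, read 4.25 to 4.64 in the sham arrays and 3.63 to 4.38 after H/R, a difference of -0.45 ± 0.16 (SE).

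The differences of Ccnb1, Ccna2, Bub1, Cdk1, Birc5 and Aurka lay between -0.87 and -0.50, with unadjusted p from 0.004 to 0.043. In Cdk1, the kinase that drives entry into mitosis, sham replicate 1 was the low array at 5.25 while the other sham arrays lay between 6.17 and 6.35, and the difference of -0.76 became -0.96 without it. Among the replication and G1 members, Rrm2, a ribonucleotide reductase subunit, had -0.87 ± 0.37 (SE), E2f1, a transcription factor of S phase genes, -0.52 ± 0.18 (SE), and Rrm1 -0.39 ± 0.18 (SE). Tyms, thymidylate synthase, was not above background after H/R and was at least 1.15-fold lower there. Mcm5, a subunit of the replicative helicase, had -0.22 ± 0.26 (SE), with an interval from -0.75 to 0.32.

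The mean log2 signal of the 13 mitosis members in each array shows how the groups were spread. The 5 sham arrays lay between 4.91 and 5.14, and sham replicate 1 was the lowest of them. The 8 H/R arrays lay between 3.52 and 4.91, with 4.80 and 4.91 in H/R replicates 7 and 8 and 3.52 in replicate 4. The groups therefore met at 4.91, and the SD was 0.09 over the sham arrays and 0.50 over the H/R arrays. In untreated ligated livers the same mean was 5.27 to 5.47 after sham and 3.75 to 5.79 after H/R, and in control livers 4.01 to 4.80 and 3.82 to 4.65. The difference of the H/R effects between treated and untreated ligated livers was lower at an unadjusted p under 0.05 in 2 of 26 cell cycle members (7.69%, background 2.91%), Aurkb with -0.91 and Tyms with -0.56, and passed the adjusted threshold in 0. Leaving out H/R replicate 4 left 10 of 26 members lower at an unadjusted p under 0.05 in the H/R comparison, the lowest count of the alternatives. RNA from bulk liver cannot tell fewer dividing cells from less RNA per cell. The mean of the Kupffer cell and macrophage markers lay between 7.87 and 8.66 in the sham and 7.39 and 8.42 in the H/R arrays, and its part in the cell cycle values was not tested.

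**Figure D2:**
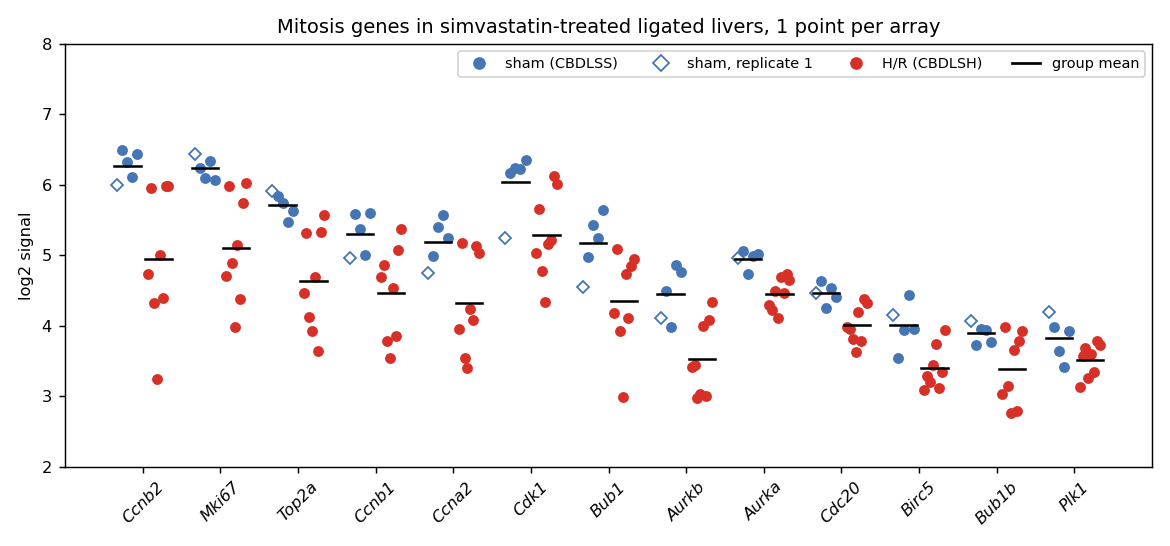
Log2 signal (y axis) of the 13 cell cycle members of G2 and mitosis in the simvastatin sham arrays (blue, replicate 1 as an open diamond) and simvastatin H/R arrays (red), 1 point per array with the group mean as a bar. In Ccnb2, Mki67 and Aurka all H/R arrays lie below all sham arrays, and the H/R arrays are the more spread.

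The inducible heat shock chaperones and co-chaperones, 23 measured of 25, gave a median difference of 0.06 with 14 positive and 9 negative. Hspa1a and Hspb1 were higher at an unadjusted p under 0.05 (2 of 23, 8.70%, background 2.01%), and 0 were lower. Hspa1a, the inducible Hsp70, read 8.83, 7.66, 9.15, 8.49 and 7.53 in the sham arrays and from 8.56 to 11.09, median 9.39, after H/R. The difference was 1.33 ± 0.47 (SE; unadjusted p 0.0078, adjusted p 0.83), with overlap. Hspb1, the small heat shock protein Hsp27, read 8.03, 6.97, 7.74, 7.96 and 7.36 against 7.29 to 10.03, median 8.89, a difference of 1.14 ± 0.41 (SE; unadjusted p 0.0096, adjusted p 0.85). The next smallest p belonged to Hspa4l, at 0.31 ± 0.17 (SE), and Hsph1, a nucleotide exchange factor of Hsp70, at 0.41 ± 0.25 (SE). The differences were 1.46 for Hspa1a and 1.24 for Hspb1 when sham replicate 1 was left out.

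The same list passed the adjusted threshold after H/R in 9 of 23 members in control livers (background 0.365%) and in 3 of 23 in untreated ligated livers (background 0.119%), all higher. The median differences were 0.56 and 0.39 there. Tests of the difference between treated ligated and control livers passed for 2 of the 23, both with a smaller effect in treated livers (background 0.0298%). Dnaja4, an Hsp40 co-chaperone, had group means of 6.40 ± 0.15 (SD, n = 5) and 8.90 ± 0.95 (SD, n = 6) in control sham and H/R livers, and 6.93 ± 0.22 (SD, n = 5) and 6.99 ± 0.15 (SD, n = 8) in treated ligated livers. Its H/R difference in treated livers was 0.06, with a 95% interval from -0.44 to 0.57, against 2.50 in control livers, and the difference of effects was -2.44 ± 0.36 (SE; limma adjusted p 0.0013). Hspb1 differed by -3.16 ± 0.60 (SE; limma adjusted p 0.029) on the same scale, from an effect of 4.30 in control livers. Without sham replicate 1 the adjusted p for Hspb1 was 0.064, while that for Dnaja4 was 0.0029. Ligation and simvastatin cannot be told apart in a comparison with control livers. The sham arrays of Hspb1 read 5.55 to 6.34 in control, 6.57 to 7.75 in untreated ligated and 6.97 to 8.03 in treated livers. After H/R, Hspb1 read 8.84 to 10.91 in untreated ligated livers. Against untreated ligated livers 0 of 23 passed, and 6 of 23 had a smaller effect in treated livers at an unadjusted p under 0.05 (26.1%, background 2.91%), Hsph1 with -1.12 ± 0.37 (SE) among them.

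Among the serine, asparagine and one-carbon enzymes, 1 of 11 had an H/R effect that differed from that of control livers past the threshold (background 0.0223%). It was Phgdh. Phgdh, the first enzyme of serine synthesis from glycolysis, had means of 7.47 ± 0.57 (SD, n = 5) and 5.23 ± 0.55 (SD, n = 6) in control sham and H/R livers, where it fell by 2.23. In treated ligated livers it read 6.90, 7.11, 7.19, 7.53 and 7.02 after sham and 6.28 to 8.10, median 7.40, after H/R. The difference there was 0.12, with an interval from -0.41 to 0.66, and the difference of effects was 2.36 ± 0.38 (SE; limma adjusted p 0.0041). Psat1 and Asns, further enzymes of serine and asparagine synthesis, fell in control livers by 1.25 and 0.95, and in treated livers their differences were -0.31 ± 0.22 and 0.40 ± 0.20 (SE). Neither difference of effects passed, with 0.95 for Psat1 (limma adjusted p 0.52) and 1.35 for Asns (limma adjusted p 0.077). Of the 11 measured members, 0 were at an unadjusted p under 0.05 in treated livers. The median of the list was 0.04 in treated, -0.03 in untreated ligated and -0.32 in control livers. Between treated and untreated ligated livers, 0 of 11 differences of effects were at an unadjusted p under 0.05. Treated and control livers differ in both ligation and simvastatin, which a comparison with control livers cannot tell apart.

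Of the other 4 genes whose H/R effect differed from that of control livers, Ccng1, a p53 target, had a difference of effects of -1.06 (limma adjusted p 0.029), with 0.02 in treated livers, an interval from -0.27 to 0.30, and 1.07 in control livers. Otub2, a deubiquitinase, had 1.48 (limma adjusted p 0.041), with -0.05 in treated and -1.53 in control livers. Dock9, an exchange factor for Cdc42, had 0.83 (limma adjusted p 0.032), with 0.47 in treated and -0.36 in control livers. The mean of its 2 probe sets gave 0.37 and an adjusted p of 0.62. Clec4m, a lectin of sinusoidal endothelium, passed too (limma adjusted p 0.014), but it was above background in control H/R livers alone, where it was at least 1.68-fold higher than in control sham livers. It has no level in treated livers, so the size of its difference of effects is not measured. Of the 7 genes, Dnaja4 and Phgdh passed under all 32 alternatives run and Clec4m under 30 of 31, the exception being without control sham replicate 1 (adjusted p 0.062). Hspb1 passed under 20 of 32, Ccng1 under 18, Dock9 under 16 and Otub2 under 9. These 4 lost the call when any of several control or treated arrays was left out, with adjusted p up to 0.078, 0.086, 0.081 and 0.11. Without treated sham replicate 1 the values were 0.064 for Hspb1, Dock9 and Otub2 and 0.00031 for Ccng1.

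**Figure D3:**
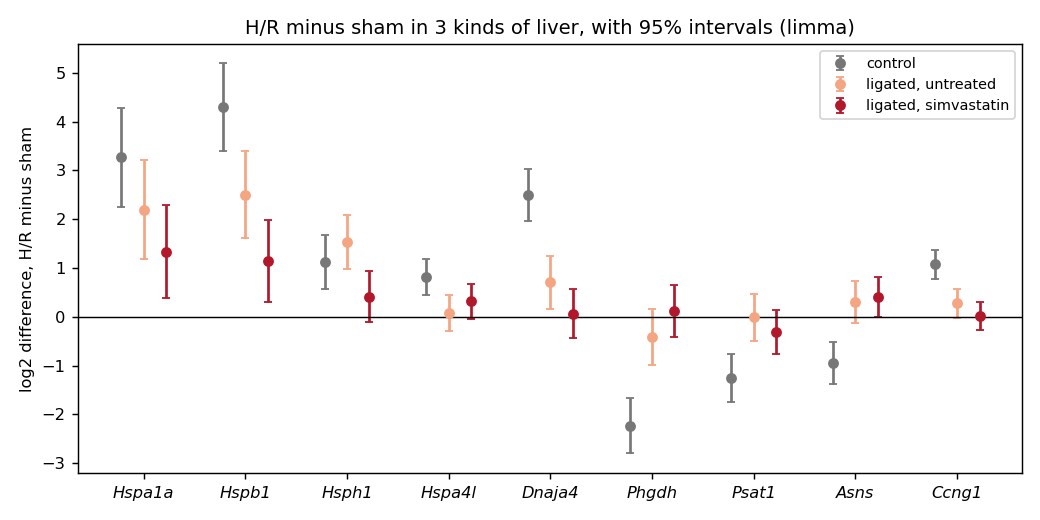
Log2 difference of H/R minus sham (y axis, log2 units) with 95% intervals from limma for heat shock genes, serine and asparagine synthesis genes and Ccng1 in control, untreated ligated and simvastatin-treated ligated livers. In treated livers the intervals of Dnaja4, Phgdh and Ccng1 span 0, against 2.50, -2.23 and 1.07 in control livers.

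Macrophage and neutrophil genes had mostly negative differences in treated livers and positive medians in untreated ligated livers (0.22 and 1.12), and for 1 myeloid gene, Pira2, the test of the difference between the effects passed. Of the 14 measured Kupffer cell and macrophage markers, 12 had a negative difference, the median was -0.18, and 3 were lower at an unadjusted p under 0.05 (21.4%, background 3.39%). Clec4f, the C-type lectin that marks Kupffer cells, read 8.05, 9.26, 8.10, 6.90 and 8.94 after sham and 3.69 to 8.56, median 6.59, after H/R, a difference of -2.06 ± 0.73 (SE; unadjusted p 0.0085, adjusted p 0.85). Cd5l, a secreted protein of resident macrophages, read 8.08, 10.06, 8.24, 8.11 and 9.40 against 6.29 to 8.29, median 7.47, a difference of -1.50 ± 0.43 (SE; unadjusted p 0.0013, adjusted p 0.63). Cd163, the haptoglobin-hemoglobin receptor, read 8.22, 7.73, 6.92, 7.40 and 7.54 against 5.63 to 7.81, a difference of -0.77 ± 0.37 (SE), which was -0.60 without sham replicate 1. The groups overlapped in all 3.

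Except for 2 H/R arrays that end in 12, the untreated ligated arrays have other title endings than the treated ones, so the title ending and simvastatin can hardly be told apart in any comparison of treated with untreated livers. In untreated ligated livers the differences of these 3 genes were 1.55, 1.10 and 0.85, none of them past the adjusted threshold. The differences of effects between treated and untreated livers were -3.61 ± 1.07 (SE) for Clec4f, -2.60 ± 0.62 (SE) for Cd5l and -1.62 ± 0.54 (SE) for Cd163, with unadjusted p of 0.0019, 2e-04 and 0.0053, and none passed. The sham groups set part of this contrast. Cd5l stood at 8.78 ± 0.90 (SD, n = 5) in treated sham livers and at 7.36 ± 1.11 (SD, n = 5) in untreated sham livers, and after H/R at 7.27 ± 0.87 (SD, n = 8) and 8.46 ± 0.80 (SD, n = 6).

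Of 20 neutrophil markers 10 were measured, and only 6 were above background in at least 1 treated group. All 10 differences were negative, with a median of -0.25, and 2 were lower at an unadjusted p under 0.05 (background 3.39%). Slpi, a secreted inhibitor of neutrophil elastase that epithelia also make, read 7.60, 9.54, 7.44, 8.60 and 8.52 after sham and 6.12 to 8.65, median 7.23, after H/R. The difference was -0.98 ± 0.47 (SE) in treated and 2.06 in untreated ligated livers, and the difference of effects was -3.04 ± 0.68 (SE; unadjusted p 8.2e-05, limma adjusted p 0.37). Csf3r, the receptor of granulocyte colony-stimulating factor, was not above background after H/R and was at least 1.69-fold lower there. S100a8 and S100a9, the calprotectin subunits, had -0.92 ± 0.59 and -0.74 ± 0.60 (SE), and within title ending 12 alone both were positive, at 0.14 and 0.34. Of the 10, 6 had a lower H/R effect in treated than in untreated livers at an unadjusted p under 0.05 (background 2.91%). Here too the sham groups set part of the contrast. The mean of the 10 markers was 5.20 ± 0.65 (SD, n = 5) in treated and 4.53 ± 0.18 (SD, n = 5) in untreated sham arrays. After H/R it was 4.74 ± 0.37 (SD, n = 8) and 5.68 ± 0.80 (SD, n = 6). Il1b, the cytokine interleukin 1 beta, singled out after its values were seen, had 2.28 in untreated livers, where it passed, and -0.14 in treated livers, with an interval from -1.02 to 0.75 and a difference of effects of -2.42 ± 0.63 (SE; limma adjusted p 0.53).

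The test that passed was that of Pira2, a paired immunoglobulin-like receptor of myeloid cells. It read 5.66, 5.93, 5.19, 5.80 and 5.21 in treated sham arrays and from 3.88 to 5.44, median 4.57, after H/R, a difference of -1.06 ± 0.26 (SE; adjusted p 0.49). In untreated ligated livers it rose by 1.39, from 4.18 ± 0.74 (SD, n = 5) to 5.57 ± 0.43 (SD, n = 6). The difference of effects was -2.44 ± 0.38 (SE; limma adjusted p 0.0038), and without sham replicate 1 it was -2.42 with an adjusted p of 0.014. Pira2 was 1 gene of 13439 past the threshold (0.00744%) in that test. It belongs to a family of near-identical receptors, and its 3 probe sets disagreed, with differences in treated livers of -1.06, 0.42 and -0.19. Their mean gave a difference of effects of -0.57 and an adjusted p of 0.88, so the call rests on the brightest probe set.

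**Figure D4:**
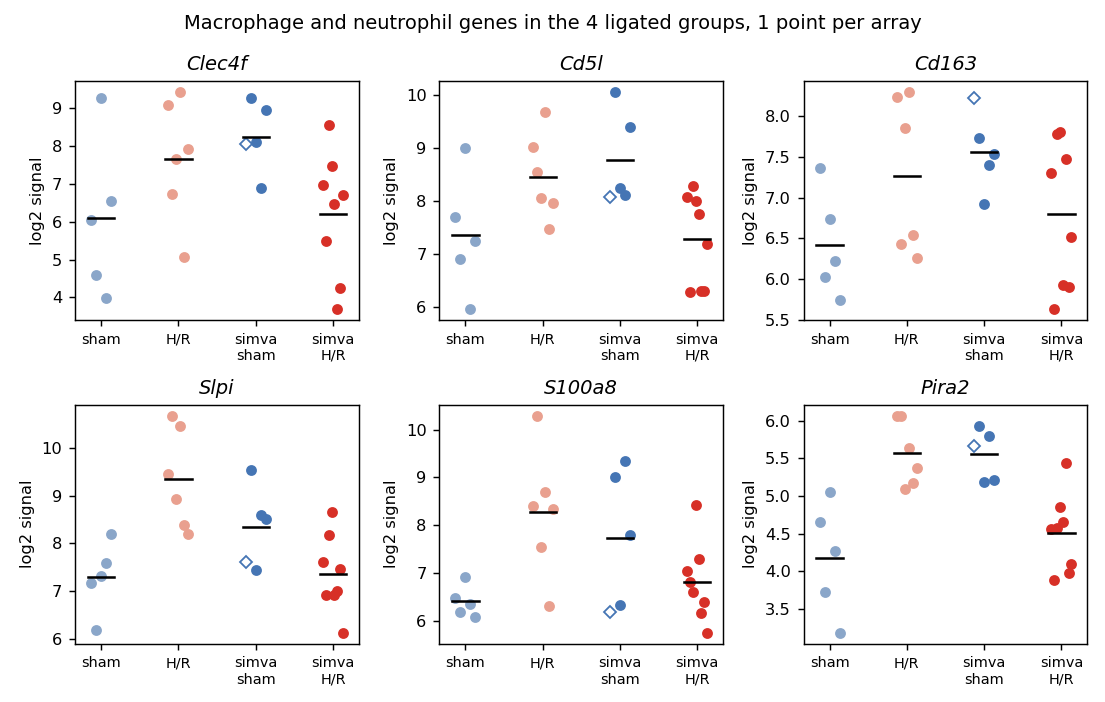
Log2 signal (y axis) of 3 macrophage genes, 2 neutrophil genes and the myeloid receptor Pira2 in the 4 ligated groups, 1 point per array, group means as bars, treated sham replicate 1 as an open diamond. Group means of H/R are above sham in untreated and below sham in simvastatin-treated livers for all 6 genes. These genes were picked by p in these same data, so their shared direction is no support. In treated livers 2 of 14 macrophage, 0 of 10 neutrophil and 4 of 13 monocyte markers had a positive difference. Arrays of sham and H/R overlap in both pairs of groups except for Pira2 in untreated livers.

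Other immune lists had few members at an unadjusted p under 0.05. MHC class II presentation had 7 of 8 members negative and a median of -0.29, with 2 of 8 lower at that p and 4 of 8 without sham replicate 1 (background 3.39% and 2.35%). RT1-Ba, an MHC class II alpha chain, had -1.66 ± 0.62 (SE), but its other 3 probe sets gave 0.08, 0.12 and 0.08, and RT1-Db1, a beta chain, had -0.59 ± 0.23 (SE). Lymphocyte markers had 16 of 19 negative with a median of -0.19, but only 8 of 19 were above background. Chemokines and their receptors split 14 to 14, and 1 of 28 was lower, Cxcl13, a B cell attractant, whose H/R mean was not above background (at least 1.70-fold lower). In that list 9 of 28 had a lower H/R effect in treated than in untreated livers at an unadjusted p under 0.05 (32.1%, background 2.91%), and 0 passed.

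Matrix genes of stellate cells and myofibroblasts had 16 of 27 negative, a median of -0.15, 3 lower and 1 higher at an unadjusted p under 0.05, beside 53.7% negative, 3.39% lower and 2.01% higher over all genes. With array weights the median was -0.02, and without sham replicate 1 there were 3 lower and 0 higher. Col1a1, the main chain of type I collagen, read 6.21, 6.85, 6.50, 5.88 and 6.19 after sham and 4.64 to 6.34, median 5.80, after H/R, a difference of -0.67 ± 0.23 (SE; unadjusted p 0.0058, adjusted p 0.83). Postn, the matrix protein periostin, had -1.09 ± 0.45 (SE) and -1.55 without sham replicate 1, in which it was lowest. Col6a3 had -0.44 ± 0.21 (SE). Fn1, fibronectin, which hepatocytes also secrete into plasma, was the higher member, at 0.26 ± 0.10 (SE), and 0.20 without sham replicate 1.

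Lists of early and stress responses had small positive medians. Immediate early and AP-1 genes had 24 of 26 positive, a median of 0.28, 2 higher (background 2.01%) and 1 lower, the phosphatase Dusp6 at -0.54 ± 0.24 (SE; background 3.39%), at an unadjusted p under 0.05. The other 2 probe sets of Dusp6 gave -0.08 and 0.09. The higher members were Jun and Egr3, and Egr3 was not above background in either group, so it carries no usable level. The endoplasmic reticulum and integrated stress response list had 19 of 21 positive, with a median of 0.16, and hypoxia response genes 22 of 25, with a median of 0.18. Over all genes 46.3% were positive. Jun, a subunit of AP-1, had 0.52 ± 0.21 (SE), and 0.29 without sham replicate 1, which had its lowest value, and its 3 probe sets gave 0.52, 0.07 and 0.60. Dnajb9, a chaperone of the endoplasmic reticulum, had 0.46 ± 0.17 (SE), Ndrg1, a hypoxia-induced gene, 0.46 ± 0.21 (SE), and Egln3, an oxygen-sensing prolyl hydroxylase, 0.93 ± 0.46 (SE). Acute phase plasma proteins had 21 of 21 positive with a median of 0.12, and only A2m was at an unadjusted p under 0.05. All these lists rest on the same 13 arrays.

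No endothelial gene passed the adjusted threshold. Klf2 read 8.26, 8.00, 8.19, 7.55 and 8.09 after sham and 7.37 to 9.03, median 8.38, after H/R, a difference of 0.36 ± 0.25 (SE; adjusted p 0.89) with an interval from -0.15 to 0.87. Nos3 was not above background in either group. Flt1, a receptor of vascular endothelial growth factor A, had 0.72 ± 0.23 (SE; unadjusted p 0.004, adjusted p 0.81), and 0.53 without sham replicate 1, which had the lowest value at 2.83. The 14 measured endothelial markers had a median of -0.01. Sterol synthesis and uptake genes, the transcripts that answer to a block of the mevalonate pathway, had a median of -0.06 over 21 members, with 0 at an unadjusted p under 0.05 in either direction. The smallest p among them belonged to Srebf2, the sterol-sensing transcription factor, at -0.29 ± 0.16 (SE), and Mvd, mevalonate diphosphate decarboxylase, at -0.41 ± 0.23 (SE). Without sham replicate 1, in which both were highest, these were -0.05 and -0.17.

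**Figure D5:**
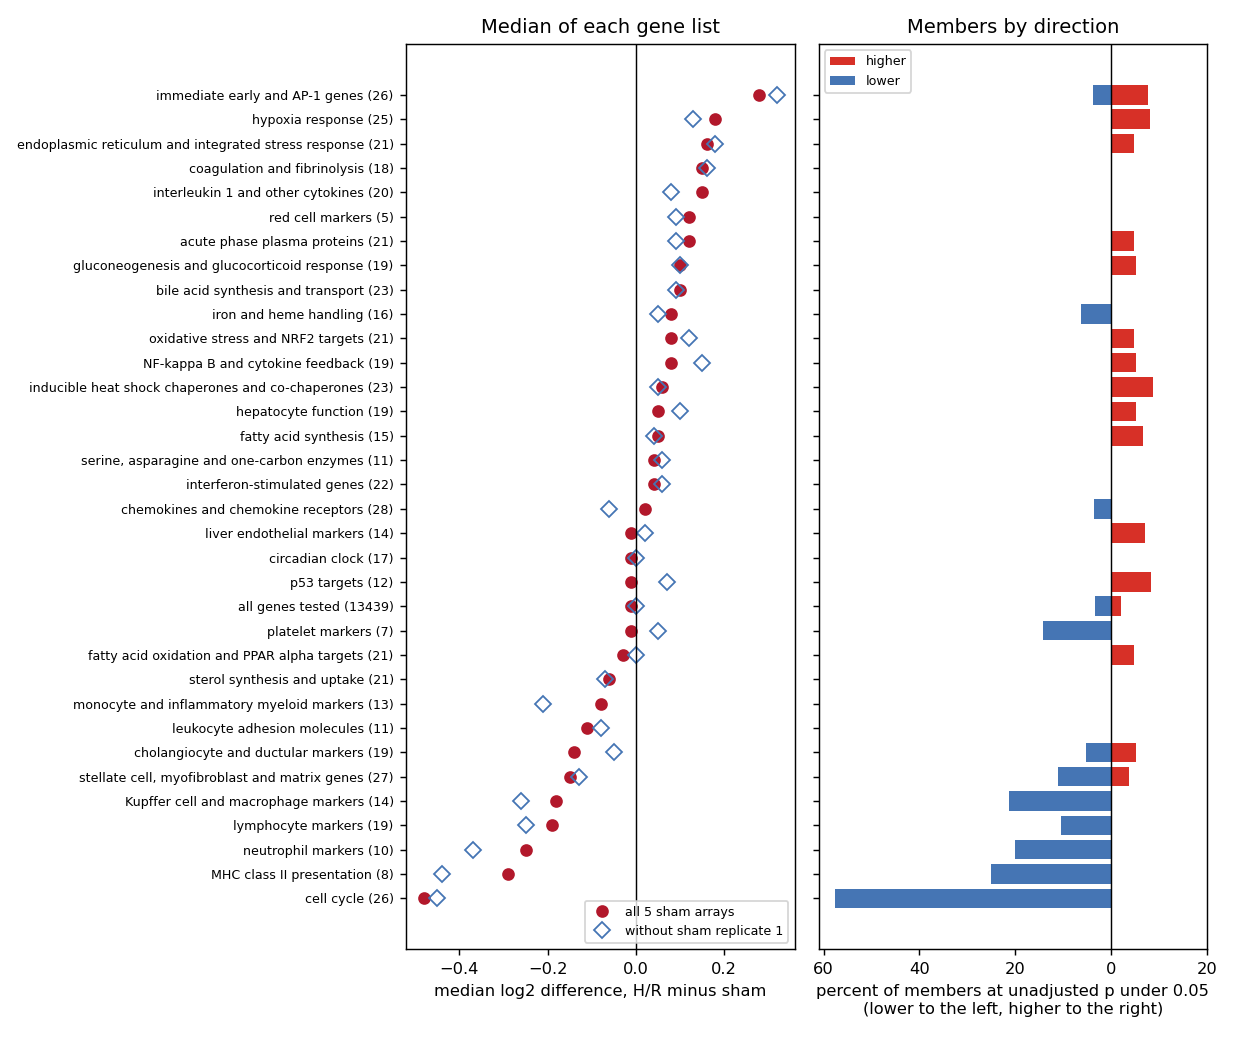
Left, median log2 difference of simvastatin H/R minus simvastatin sham (x axis) for each gene list (number of measured members in parentheses) with all 5 sham arrays (circles) and without sham replicate 1 (diamonds). Right, percent of members at an unadjusted p under 0.05, lower to the left and higher to the right. The cell cycle list has the lowest median, -0.48, and 57.7% of its members lower, beside 3.39% of all genes.

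Genes that passed after H/R in the other livers were followed in the treated ones, which share no arrays with them. They were picked for a large effect there, which inflates that effect. The 16 genes higher in untreated ligated livers had a median of 1.01 there and 0.11 in treated livers, where 13 of 16 were positive, and at an unadjusted p under 0.05, 2 were higher (background 2.01%) and 1 was lower (background 3.39%). The 49 genes higher in control livers had a median of 0.90 there and 0.13 in treated livers, where 39 were positive and 3 were higher at that p (6.12%, background 2.01%). The 66 genes lower in control livers had a median of -0.77 there and -0.10 in treated livers, where 48 were negative and 5 were lower at that p (7.58%, background 3.39%). Over all genes tested, 46.3% had a positive and 53.7% a negative difference in treated livers.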

How the data were processed

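RNA from 35 rat liver samples was measured on Affymetrix arrays, 1 array per sample, and the groups were taken from the treatment labels. The values are log2 signals per probe set as deposited by the authors in the series' value table. The background correction and normalization were not given in the sources used here, and the array medians were alike, between 3.97 and 4.29. The number of arrays limits the precision. The labels list the arrays as separate samples without saying that each came from its own animal, so a p-value reflects the scatter among samples, which may be technical.

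Of 31139 probe sets, 19069 carried 1 gene symbol in the platform annotation, 572 several and 11498 none. The brightest probe set with 1 symbol stood for each of 13439 genes. A mean per group was fitted over all 6 groups with limma 3.58.1 in R 4.3.3 (lmFit, eBayes), with Benjamini-Hochberg adjustment over all genes, a threshold of 0.05 and intervals of 95%. Differences of H/R effects are contrasts of that fit. A group was above background where its mean exceeded that of the brightest nonspecific control probe of its arrays. A lower bound of a fold takes, for each array of the dim group, the higher of the gene's own signal and that control probe on the array. The script was tested on simulated data.

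The text names the 10 genes of smallest p in each direction, since none passed, and genes past the threshold in a difference of effects. For each list but the cell cycle it names at most 4 members (those of lowest p), with Klf2 and Nos3. For the cell cycle it names all 15 members at an unadjusted p under 0.05, and Mcm5 and Plk1 for their promoters. Alb, Krt19 and Il1b were named outside these rules, and so were genes called only with array weights. The 33 lists (690 entries, 591 measured), their members and this comparison were chosen with earlier results of these data known, so no count is independent support. Alternatives were the samples in the fit, moderation, array weights, a filter at the 30th percentile, scaling, the mean of probe sets, each array left out, the Gapdh difference as a covariate, and the ending of the array title. Promoter windows came from RefSeq (GRCr8), matched by symbol.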

Additional observations from a re-analysis of the deposited data

Results flagged for a closer look

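Of 41 genes examined, 6 had an array far from the others of its group in the treated livers, and so had both control probe differences. Chance flags about 1 in 20 groups. Treated sham replicate 1 was the lowest of its group for Nars1 at 7.30, Pttg1 at 5.05, Ccng1 at 7.29 and Cdk1 at 5.25, and the highest for the 3′ minus 5′ difference of Gapdh at 2.20 and of actin at 4.30. Flt4 was highest in treated H/R replicate 3 at 5.19. Rrm1 was lowest in treated sham replicate 4 at 6.15.

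For 8 genes the H/R effect of treated ligated livers differed from that of other livers past an adjusted p of 0.05 in limma. The difference of effects against untreated ligated livers was -2.44 for Pira2. Against control livers it was -2.44 for Dnaja4, 2.36 for Phgdh, -1.32 for Clec4m, -3.16 for Hspb1, -1.06 for Ccng1, 0.83 for Dock9 and 1.48 for Otub2. With the mean of probe sets it was -0.57 for Pira2 (limma adjusted p 0.88) and 0.37 for Dock9 (limma adjusted p 0.62). Hspb1 passed under 20 of 32 alternatives, Ccng1 under 18, Dock9 under 16 and Otub2 under 9. The value of Clec4m has no measured size, since the gene was above background in control H/R livers alone. Control livers differ from treated ones in both ligation and simvastatin, which these differences cannot tell apart. Control arrays all have titles that end in 13 and treated arrays end in 12 or 13. Untreated ligated arrays have other endings, except 2 H/R arrays that end in 12, so for Pira2 the title ending and simvastatin can hardly be told apart. The part of the ending in these differences was not tested.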

How the results depend on the processing

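No gene passed an adjusted p of 0.05 between treated H/R and treated sham under any alternative run except array weights, which passed 6 lower genes, Aard, Cd4, Cd5l, Nat8f5, Pimreg and Sslp1l1. Of these, Cd5l alone was above background in both groups, and Cd4 and Sslp1l1 were in neither. At an unadjusted p under 0.05 the higher genes numbered 430 with array weights and 421 with each array centred on its median, and the lower genes 278 with that centring and 281 within title ending 13. Leaving out 1 array gave 174 to 449 higher and 316 to 639 lower genes. For the difference from untreated ligated livers, 1 higher gene passed with trended robust moderation, array weights, the 30th percentile filter, quantile normalization and median centring, and 0 to 1 with 1 array left out. Array weights gave 2 lower genes, and 654 higher and 601 lower at an unadjusted p under 0.05, and the mean of probe sets gave 0 lower genes. For the difference from control livers, the fit of only the groups compared passed 1 higher and 2 lower genes, array weights 5 higher, and quantile normalization 2 lower. With 1 array left out 1 to 7 higher and 1 to 7 lower genes passed. Of 1981 log2 differences of 83 genes over 24 alternatives, 20 changed sign, in 9 genes. With array weights these were Mcm5 at 0.01, Il1b at 0.26 and Ccng1 at -0.11. Otub2 was at 0.03 with the mean of probe sets and 0 with the Gapdh covariate, where Ccng1 was at -0.15. With the title ending as a block Ccng1 was at -0.04. Within ending 12 Hsph1 was at -0.11, Dnaja4 at -0.04, S100a8 at 0.14 and S100a9 at 0.34, and within ending 13 Mcm5 and Il1b were at 0.15 and Ccng1 at -0.13. With 1 array left out Dnaja4 ranged from -0.02 to 0.11, Il1b from -0.44 to 0.10, Nos3 from -0.06 to 0.19 and Ccng1 from -0.17 to 0.10. The cause of these changes was not tested. No paired analysis was possible because the labels give the groups no shared replicate numbers.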

Other observations

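Lists that the text above leaves out had few members at an unadjusted p under 0.05 in treated livers. Hepatocyte function genes had 17 of 19 positive differences with a median of 0.05, and coagulation and fibrinolysis genes 16 of 18 with a median of 0.15. In both, sham replicate 1 could be left out with medians of 0.10 and 0.16. Cholangiocyte and ductular markers had 12 of 19 negative, a median of -0.14, and 1 higher and 1 lower member (2.01% and 3.39% of all genes). Without sham replicate 1 the median was -0.05 and both calls were lost, and with array weights it was 0.09. Fatty acid synthesis, fatty acid oxidation, gluconeogenesis, oxidative stress and p53 target lists each had 1 higher member with all arrays and 0 without sham replicate 1. Bile acid synthesis and transport, interferon-stimulated and circadian clock genes had 0 in either direction. The fit over all 31139 probe sets passed 0 at an adjusted p of 0.05, with 1547 at an unadjusted p under 0.05. Interleukin 1 and other cytokines had 15 of 20 positive with a median of 0.15, leukocyte adhesion molecules 6 of 11 negative with -0.11, and monocyte and inflammatory myeloid markers 9 of 13 negative with -0.08, with 0 members in either direction at that p. Without sham replicate 1 the medians were 0.08, -0.08 and -0.21, the cytokines and the monocyte markers each had 1 lower member, and the adhesion molecules had 1 higher and 1 lower. NF-kappa B and cytokine feedback genes had a median of 0.08 and 1 higher member, Socs2, an inhibitor of cytokine and growth hormone signalling, at 0.64 ± 0.23 (SE). Platelet markers had 1 lower member, the integrin Itga2b, at -0.31 ± 0.15 (SE), with 4 of 7 above background. Red cell markers had 1 of 5 above background. Iron and heme handling genes had a median of 0.08, and their 1 lower member was Cd163.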
